A study of Mus musculus with 6 samples.

Results

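Immunoglobulin variable (V) segments were taken as all genes of the deposited abundance table whose symbol is Ighv, Igkv or Iglv followed by a number. The rule found 346 segments among 30330 genes. There were 183 of the heavy chain locus on chromosome 12, 160 of the kappa light chain locus on chromosome 6 and 3 of the lambda light chain locus on chromosome 16. A value was listed for 277 of them (172 heavy, 102 kappa and 3 lambda), and 196 were above 0 in at least 1 library. The mean over all libraries reached 1 TPM for 75 segments (30 heavy, 42 kappa and 3 lambda), and these 75 entered the tests.

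Whole colon RNA was measured in 6 male mice of 12 weeks, 3 wild type and 3 Tnfrsf1a-/-, which the labels call R1ko. Tnfrsf1a encodes TNFR1, the receptor through which tumour necrosis factor acts on most cells. The strain label is C57Bl/6J for both groups, and the labels name neither a treatment nor a driver that limits the deletion to 1 cell type. Abundance is given in TPM, a value per transcript length with the same total in each library, so levels of different segments can be set side by side.

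Each B cell joins 1 V segment to a joining segment, with a diversity segment in the heavy chain, and the resulting exon is spliced to a constant gene. The V segment supplies most of the part of the antibody that touches antigen, and the daughters of a B cell keep its choice. In the gut wall most of this RNA comes from plasma cells that secrete IgA, with a smaller part from the B cells of lymphoid follicles. The share of each V segment in the RNA of a locus is called its usage here.

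The segments on which the results turn are shown by the last 75 bases of their V exon, because near-identical relatives differ by few bases here and because this end is the one joined. Sequences are from the GENCODE M21 transcripts of the mm10 build, 5′ to 3′ on the coding strand. Capitals mark the codon of the conserved cysteine that precedes the third hypervariable loop.
Ighv2-9-1: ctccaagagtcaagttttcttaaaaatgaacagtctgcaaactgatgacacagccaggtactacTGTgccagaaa
Ighv3-3: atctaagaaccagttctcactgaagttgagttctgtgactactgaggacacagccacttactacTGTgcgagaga
Igkv1-117: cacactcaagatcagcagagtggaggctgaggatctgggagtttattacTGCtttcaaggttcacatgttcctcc
Igkv1-110: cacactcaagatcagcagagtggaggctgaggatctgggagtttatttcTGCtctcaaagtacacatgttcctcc
Igkv1-135: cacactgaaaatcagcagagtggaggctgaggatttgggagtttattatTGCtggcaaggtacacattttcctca
Igkv1-133: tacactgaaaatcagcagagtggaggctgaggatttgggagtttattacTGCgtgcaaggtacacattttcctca
Igkv8-28: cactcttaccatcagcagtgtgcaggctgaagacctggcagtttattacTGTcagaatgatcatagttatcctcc
Igkv8-19: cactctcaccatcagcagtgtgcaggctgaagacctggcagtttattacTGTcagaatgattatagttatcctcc
Iglv1: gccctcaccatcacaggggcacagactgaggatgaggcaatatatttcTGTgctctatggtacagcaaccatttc
Iglv2: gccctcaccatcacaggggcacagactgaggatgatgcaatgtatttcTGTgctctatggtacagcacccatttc
Iglv3: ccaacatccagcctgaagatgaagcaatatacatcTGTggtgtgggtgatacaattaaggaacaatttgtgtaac

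The stretches are at chr12:113769850-113769924 (Ighv2-9-1, minus strand), chr12:114196439-114196513 (Ighv3-3, minus), chr6:68121753-68121827 (Igkv1-117, plus), chr6:68271193-68271267 (Igkv1-110, plus), chr6:67610434-67610508 (Igkv1-135, plus) and chr6:67725587-67725661 (Igkv1-133, plus). The others are at chr6:70143593-70143667 (Igkv8-28, minus), chr6:70340876-70340950 (Igkv8-19, minus), chr16:19085017-19085091 (Iglv1, minus), chr16:19260401-19260475 (Iglv2, minus) and chr16:19241207-19241281 (Iglv3, minus). Over these 75 bases Igkv8-28 and Igkv8-19 differed at 2 positions, Iglv1 and Iglv2 at 3, Igkv1-117 and Igkv1-110 at 4, and Igkv1-135 and Igkv1-133 at 4. Over the whole V exon the same pairs were 97.7, 97.4, 96.8 and 96.5% identical. Words of 31 bases that occur in no other annotated transcript made up 44.7% of the transcript of Igkv8-28, 37.4% of Igkv1-117, 42.3% of Igkv1-135, 61.4% of Ighv2-9-1 and 94.1% of Ighv3-3. For the other words a read cannot be assigned to 1 segment by its sequence, so the split between such relatives is an estimate of the quantification program. Somatic mutation of rearranged segments adds to that uncertainty and was not measured here.

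Facts of the whole series that touch these values were few. The full-length Tnfrsf1a transcript was at 39.9 to 67.6 TPM in wild type and 20.4 to 25.6 TPM in R1ko, a short one (ENSMUST00000125880) at 0.890 to 1.20 and 12.4 to 18.0 TPM, and the sum over all transcripts overlapped between the groups. Transcripts without a gene held 27.4% of TPM in wild-type replicate 2 and 1.86 to 7.23% in the other 5 libraries, which lowers every other value of that library. All 8 colon epithelial markers were present, with a summed level of 3239 to 4609.7 TPM, and the 2 liver markers summed to 0.980 to 1.42 TPM. The 3 skeletal muscle markers summed to 73.3 to 909 TPM, with both extremes in wild type. The read depth behind a TPM value is not given in the files, so no counting interval can be set.

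The total level of V segment RNA did not separate the genotypes in any locus. Heavy chain segments summed to 71.3, 72.9 and 131 TPM in wild-type replicates 1 to 3 and to 125, 60.9 and 74.8 TPM in R1ko replicates 1 to 3. The means were 91.8 ± 34.2 and 86.9 ± 33.8 TPM (SD, n = 3 each). Kappa segments summed to 143, 125 and 223 TPM in wild type and to 185, 95.5 and 129 TPM in R1ko, with means of 164 ± 52.2 and 136 ± 45.0 TPM. Lambda segments summed to 21.0, 12.7 and 53.1 TPM in wild type and to 33.3, 13.9 and 20.1 TPM in R1ko. Wild-type replicate 3 had the highest total in all loci and R1ko replicate 1 the next highest, and the groups overlapped. In whole tissue, fewer cells of a type and less RNA per cell cannot be told apart.

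**Figure D1:**
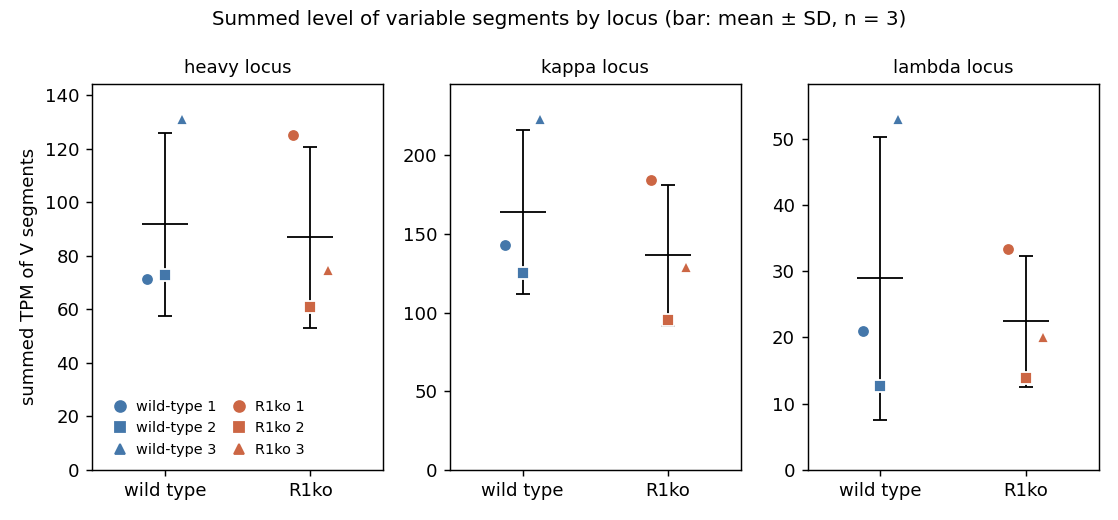
Summed TPM of heavy, kappa and lambda V segments (y axis, from 0) in each library, with the mean and SD of each genotype (n = 3). Each locus has its highest sum in wild-type replicate 3 (131, 223 and 53.1 TPM), and the groups overlap in all 3 panels.

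The balance between the chains was also alike in range. Lambda segments held 12.8, 9.19 and 19.2% of light chain V RNA in wild type and 15.3, 12.7 and 13.5% in R1ko. The ratio of light to heavy V RNA was 2.30, 1.89 and 2.11 in wild type and 1.74, 1.80 and 1.99 in R1ko. Kappa V RNA stood at 1.15 to 1.30 times the level of Igkc, the kappa constant gene, in wild type and at 1.03 to 1.24 times in R1ko. These ratios overlapped between the genotypes.

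Usage within a locus was broad in wild-type colon, and in 1 R1ko library it was narrow. Diversity was expressed as the effective number of segments, the number of equally used segments that would give the same Shannon entropy. For the heavy chain it was 48.7, 41.8 and 53.1 in wild type and 39.8, 14.9 and 43.3 in R1ko, with means of 47.9 ± 5.70 and 32.7 ± 15.5 (SD, n = 3 each). For kappa it was 36.9, 40.0 and 41.4 in wild type and 29.1, 12.7 and 45.7 in R1ko, with means of 39.4 ± 2.28 and 29.1 ± 16.5. R1ko replicate 2 was lowest in both loci, while R1ko replicate 3 had the highest kappa value of all libraries, so both comparisons overlapped. Without R1ko replicate 2 the difference of the means fell in size from -15.2 to -6.32 for heavy and from -10.3 to -2.06 for kappa. With only the segments whose mean reached 1 TPM the differences were -4.86 and -7.17. The inverse Simpson index, which gives more weight to the leading segments, was 30.0 to 39.7 for wild-type heavy chains, 28.7 and 33.5 for R1ko replicates 1 and 3 and 5.96 for R1ko replicate 2.

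The number of heavy segments above 0 was 69, 70 and 88 in wild type and 66, 52 and 62 in R1ko, with no overlap, although 66 and 69 lie close together. For kappa it was 67, 66 and 77 in wild type and 55, 48 and 73 in R1ko, which overlapped. Such a number rises with read depth and with the total of the locus, and their part in it was not tested. In all 6 libraries 27 heavy, 32 kappa and 3 lambda segments were above 0, while 71 heavy and 10 kappa segments were listed at 0 in every library. Segments annotated as pseudogenes, which cannot encode a chain, held 6.17, 1.24 and 0.837% of heavy chain TPM in wild type and 0.790 to 1.49% in R1ko. The leading pseudogene was Ighv1-14 with 3.33 TPM in wild-type replicate 1 and 0.144 to 0.882 TPM elsewhere. Of the 59 heavy and 4 kappa pseudogenes with a value, no kappa one was above 0.

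**Figure D2:**
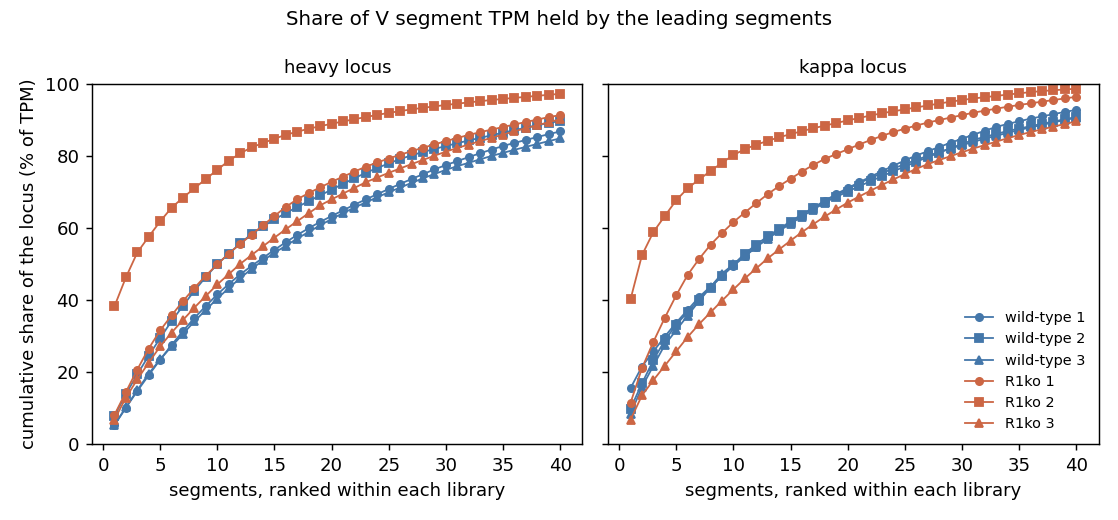
Cumulative share of locus TPM (y axis, %) held by the leading 1 to 40 segments of each library (x axis, ranked in that library) for heavy and kappa. The curve of R1ko replicate 2 starts at 38.2% in heavy and 40.2% in kappa, while the leading segment of the other libraries holds 5.32 to 15.6%.

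A single heavy and a single kappa segment led R1ko replicate 2. Ighv2-9-1 was at 0.246, 0.749 and 0.161 TPM in wild type and at 0.611, 23.3 and 0.388 TPM in R1ko. It made up 38.2% of heavy chain V RNA in R1ko replicate 2 and 0.123 to 1.03% in the other libraries. Its log2 fold change of 1.75 ± 0.66 (SE) had an adjusted p of 0.796 with limma. Without wild-type replicate 1, R1ko replicate 1 or R1ko replicate 3 the adjusted p was 0.000554, 2.55e-07 and 4.85e-09, although R1ko replicate 2 was the only high library in each of these fits. In these fits limma took the spread from other genes alone, so the wide spread of this segment did not count. Its nearest relative, Ighv2-9, was 94.1% identical. The next heavy segment of this library held 8.02%, and the 10 leading heavy segments together held 76.1% of the locus there against 40.4 to 50.0% elsewhere.

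Igkv1-117 was the leading kappa segment of R1ko replicate 2 and also of wild-type replicates 1 and 2. It was at 22.2, 12.4 and 12.9 TPM in wild type and at 13.5, 38.4 and 5.15 TPM in R1ko, so its highest and lowest levels were both in R1ko. As a share of kappa it held 15.6, 9.89 and 5.77% in wild type and 7.32, 40.2 and 3.99% in R1ko. Its log2 fold change was -0.12 ± 0.38 with an adjusted p of 1.0 (limma). Its relative Igkv1-110 was at 4.21, 8.75 and 18.6 TPM in wild type and at 12.3, 4.22 and 5.47 TPM in R1ko. The pair therefore did not move together over the libraries, although they share most of their sequence. The leading 10 kappa segments held 80.2% of kappa in R1ko replicate 2, 61.6% in R1ko replicate 1, 42.9% in R1ko replicate 3 and 49.5 to 49.9% in wild type.

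**Figure D3:**
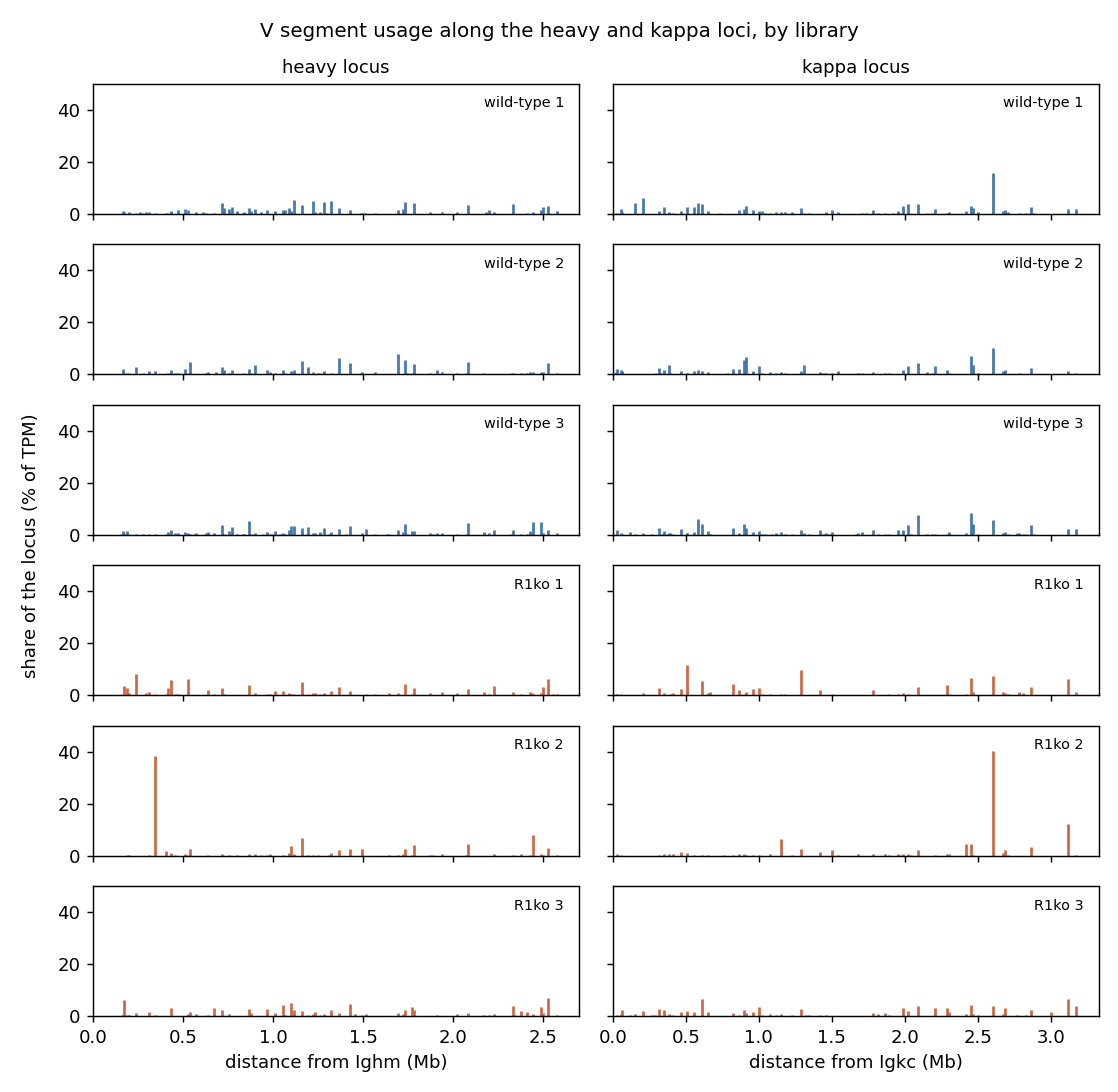
Share of locus TPM (y axis, %) of each V segment against its distance from Ighm or Igkc (x axis, Mb), 1 row of panels per library. In R1ko replicate 2 Ighv2-9-1 stands 0.347 Mb from Ighm with 38.2% and Igkv1-117 stands 2.60 Mb from Igkc with 40.2%.

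Other libraries had leading segments of their own. R1ko replicate 1 was led by Ighv5-9 with 8.13% of heavy and Igkv8-24 with 11.5% of kappa. Ighv5-9 was at 0.228, 1.91 and 0.549 TPM in wild type and at 10.2, 0 and 0.868 TPM in R1ko. Igkv8-24 was at 3.50, 0.759 and 1.32 TPM in wild type and at 21.1, 0.963 and 2.75 TPM in R1ko. Both were highest in R1ko replicate 1 and within or near the wild-type range in the other R1ko libraries, and neither passed the limma threshold (adjusted p of 1.0 each). Igkv4-59 was likewise at 17.8 TPM in R1ko replicate 1 and at 1.70 to 4.21 TPM elsewhere, with only 13.0% of its words unique to it. Ighv4-1 was at 7.83 TPM in R1ko replicate 1 and at 0.139 to 0.858 TPM in the other 5 libraries.

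Wild-type libraries were led in the heavy locus by Ighv1-7 (5.32%), Ighv1-50 (7.85%) and Ighv3-6 (5.33%) in replicates 1, 2 and 3, and R1ko replicate 3 by Ighv1-82 (6.84%). Ighv1-50 was at 1.11, 5.72 and 2.59 TPM in wild type and at 0.888, 0.169 and 0.984 TPM in R1ko, without overlap, with an adjusted p of 0.132 (limma). Ighv1-7 was at 3.79, 1.18 and 4.55 TPM in wild type and at 0.555, 0.301 and 1.79 TPM in R1ko, with an adjusted p of 0.167. Among the 8 segments of highest mean level in each locus, the share varied least in Igkv17-127, which held 2.47 to 3.90% of kappa over all 6 libraries, and in Ighv1-53, which held 2.46 to 5.45% of heavy. In wild type Igkv3-10 was at 6.00 TPM in replicate 1, listed at 0 in replicate 2 and at 0.527 TPM in replicate 3, which shows how far single segments ranged within a genotype.

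Usage was compared between libraries by the percentage they share, the sum over segments of the lower of the 2 shares. Pairs of wild-type libraries shared 55.6 to 61.2% of heavy usage and 62.5 to 68.3% of kappa usage. Pairs of a wild-type and an R1ko library shared 34.5 to 56.7% of heavy and 39.4 to 61.2% of kappa usage. R1ko replicates 1 and 3 shared 54.1% of heavy and 60.7% of kappa usage with each other. The 5 pairs with R1ko replicate 2 were the lowest in both loci, at 33.8 to 42.9% in heavy and 39.4 to 45.3% in kappa. With that library left out, the mixed pairs shared 49.6 to 56.7% of heavy and 50.2 to 61.2% of kappa usage. In kappa these stayed below every wild-type pair, and in heavy they overlapped with the wild-type pairs. The pairs share libraries, so no test was made.

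Segments are grouped into families by sequence, the number before the dash. Ighv1, the largest heavy family, held 62.7, 60.8 and 61.2% of heavy usage in wild type and 46.5, 44.8 and 55.6% in R1ko, with means of 61.6 ± 1.0 and 49.0 ± 5.82% (SD, n = 3 each). Ighv3 held 7.75, 12.4 and 9.53% in wild type and 4.90, 3.54 and 4.70% in R1ko. Ighv14 held 3.16 to 4.05% in wild type and 1.60 to 2.13% in R1ko, and Ighv7 held 1.20 to 4.39% and 0 to 0.899%. Ighv11 held 0.263 to 0.814% in wild type and had no R1ko library above 0. These 5 of the 14 heavy families above 0 did not overlap between the genotypes, with R1ko lower, and no heavy family lay higher in R1ko without overlap. Shares of families were not tested. Among the levels of all genes tested, which are not shares of a locus, 1.82% were lower and 3.17% higher in R1ko without overlap. Shares within a locus add up to 100%, and other families were higher in single R1ko libraries. Ighv2 held 38.8% in R1ko replicate 2 and 2.18 to 4.96% elsewhere. Ighv5 held 22.2 and 12.9% in R1ko replicates 1 and 3, but 3.67% in replicate 2 and 4.57 to 6.63% in wild type.

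Among the kappa families, Igkv10 held 7.08, 7.47 and 11.5% in wild type and 3.69, 3.29 and 6.07% in R1ko, the 1 of 19 without overlap. Igkv1 held 57.7% in R1ko replicate 2 and 16.8 to 21.1% in the other 5 libraries. Igkv4, the kappa family with the most measured segments (26, all above 0 somewhere), held 11.4 to 13.2% in wild type and 9.59 to 15.9% in R1ko. Counted by family, the effective number of heavy families differed by 0.189 (R1ko minus wild type), against -15.2 counted by segment. For kappa the 2 differences were -1.88 and -10.3. Families are fewer than segments, so the sizes of these differences are not on the same scale.

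**Figure D4:**
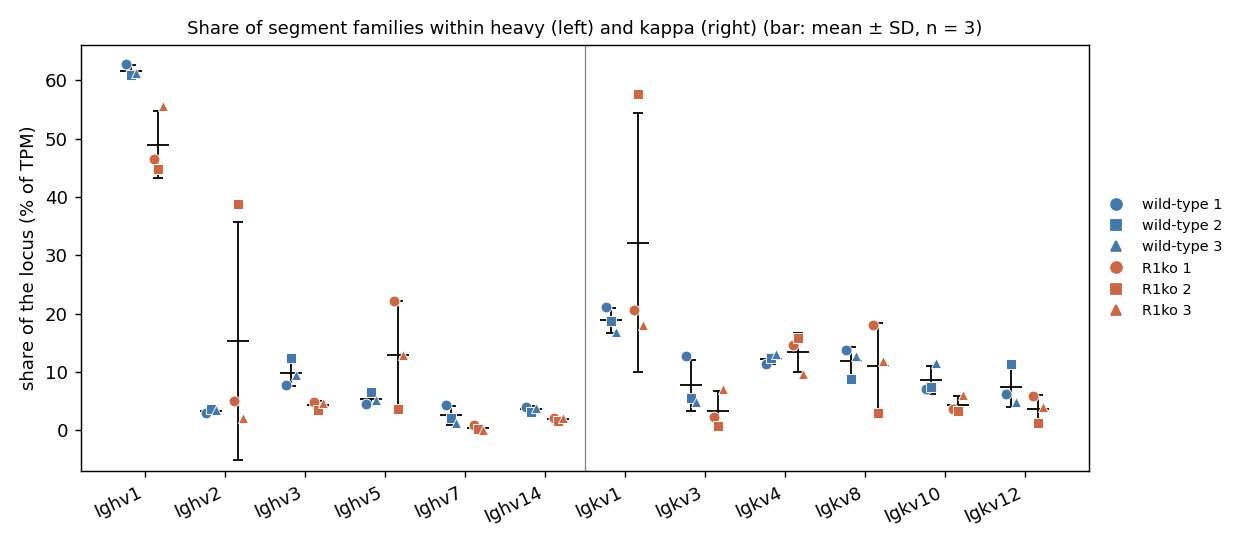
Share of the locus (y axis, % of TPM) of 6 heavy and 6 kappa families in each library, with mean and SD (n = 3). Ighv1 lies at 60.8 to 62.7% in wild type and 44.8 to 55.6% in R1ko, and R1ko replicate 2 stands apart in Ighv2 (38.8%) and Igkv1 (57.7%).

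Position was described by splitting the measured segments of a locus at their median distance from the constant gene. The nearer segments held 48.3, 46.0 and 44.5% of heavy usage in wild type and 54.7, 62.9 and 48.5% in R1ko. The groups did not overlap, but wild-type replicate 1 and R1ko replicate 3 were next to each other. Ighv1 segments lie at least 0.929 Mb from Ighm, most of them among the farther ones. Ighv2-9-1, with 38.2% of heavy usage in R1ko replicate 2, is among the nearer ones. The heavy split is therefore not a result apart from the family shares. In kappa the nearer segments held 44.0 to 51.3% in wild type and 54.7, 18.6 and 47.3% in R1ko, the lowest value being that of the library led by Igkv1-117. Kappa segments lie on both strands, 75 on the plus and 85 on the minus strand, and those on the plus strand held 40.0 to 51.7% of usage in wild type and 40.8, 71.9 and 49.5% in R1ko.

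In the test of single segments, 7 of 75 were lower in R1ko and 1 was higher at an adjusted p of 0.05 (limma, Benjamini-Hochberg over all 14248 genes tested). Over all genes, 0.175% were lower and 0.0912% were higher by the same rule. Of the 7 lower ones, 6 were kappa segments (Igkv8-28, Igkv4-61, Igkv12-44, Igkv5-43, Igkv10-94 and Igkv14-111) and 1 was a heavy segment (Ighv3-3), and the higher one was the kappa segment Igkv1-135. Igkv8-28, Igkv4-61 and Ighv3-3 were under 1 TPM in every R1ko library, so only their wild-type values brought them into the test. Their place among the lower calls is therefore partly set by the filter. The calls were not kept under every processing. After median-of-ratios scaling of the libraries 0 of 76 segments passed in either direction with limma, against 0.00703% of genes lower and 0.0351% higher, and 15 segments had an unadjusted p under 0.05. The 8 called segments kept their direction and nearly their fold change under that scaling, but their adjusted p rose to 0.186 to 0.361.

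The number of degrees of freedom that limma borrowed from other genes was 23.9 in the unscaled fit and 3.18 in the scaled one, beside 4 of the gene's own. Segments varied more within a genotype than other genes did. Their median within-group SD was 0.90 on the log2(TPM + 0.5) scale, against 0.27 for all genes in the same range of mean TPM. How far the borrowed spread set the 8 calls was not tested beyond these fits. Without wild-type replicate 2, the library with the high share of TPM outside genes, 1 segment was lower and 0 were higher, with 15 at an unadjusted p under 0.05 (limma). Without R1ko replicate 2, 8 were lower and 11 higher. The borrowed degrees of freedom were 4.65 in the first of these fits and infinite in the second. Shares of all genes passing are not given for these fits, so their counts cannot be set against other genes.

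Igkv8-28 (chr6:70143593-70144166) gave the lowest adjusted p. It was at 5.90, 2.13 and 13.2 TPM in wild type, listed at 0 in R1ko replicates 1 and 2 and at 0.315 TPM in replicate 3. The groups did not overlap, with a log2 fold change of -3.38 ± 0.40 (SE) and an adjusted p of 1.25e-05 (limma). After median-of-ratios scaling the adjusted p was 0.186 (limma). With R1ko at or near 0, the size of the fold change rests on the value added to TPM. It was -2.62 with 1 and -5.13 with 0.1 added in place of 0.5, and the call was kept with both. Igkv8-28 entered the test through wild type only, so at these R1ko levels it could be called lower but not higher. Igkv8-19, which differs from it at 2 of the printed 75 bases, was at 1.04, 4.26 and 1.47 TPM in wild type and at 0, 0.609 and 0.945 TPM in R1ko. Both relatives were thus lower in every R1ko library than in any wild-type one, and the adjusted p of Igkv8-19 was 0.220.

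Igkv1-135 (chr6:67609713-67610508) was the segment called higher. It was at 2.27, 1.53 and 4.77 TPM in wild type and at 11.5, 11.7 and 8.72 TPM in R1ko. All R1ko libraries lay above all wild-type ones, with a log2 fold change of 1.83 ± 0.29 (SE) and an adjusted p of 0.00145 (limma), which was 0.199 after scaling. Its share of kappa was 1.22 to 2.14% in wild type and 6.23, 12.2 and 6.76% in R1ko. Its relative Igkv1-133 was listed at 0 in 5 libraries and at 2.18 TPM in R1ko replicate 3, so the 2 together were also higher in R1ko.

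Ighv3-3 (chr12:114196439-114196875), with the highest share of words of its own among the called segments, was at 1.68, 1.21 and 3.80 TPM in wild type. In R1ko it was listed at 0 in replicates 1 and 2 and was at 0.207 TPM in replicate 3. The fit gave it a log2 fold change of -2.17 ± 0.36 (SE, adjusted p of 0.00278 with limma). Igkv4-61 (chr6:69416893-69417455) was at 0.377, 4.44 and 1.79 TPM in wild type and listed at 0 in all R1ko libraries, with an adjusted p of 0.0192 (0.115 with a replicate block), and no fold change is given against a group at 0. Both segments reached a mean of 1 TPM through wild type only, so at these R1ko levels they could be called lower but not higher. Ighv3-3 left the test without wild-type replicate 3, and Igkv4-61 without wild-type replicate 2 or 3.

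Igkv10-94 (chr6:68704508-68704978) was at 5.07, 3.94 and 8.35 TPM in wild type and at 0.817, 0.777 and 2.42 TPM in R1ko, without overlap (log2 fold change -1.83 ± 0.32, adjusted p of 0.0054). Igkv12-44 (chr6:69814631-69815154) was at 4.17, 8.05 and 5.50 TPM in wild type and at 2.32, 0.171 and 1.40 TPM in R1ko, also without overlap (-2.02 ± 0.36, adjusted p of 0.00656, and 0.168 with a replicate block). Igkv14-111 (chr6:68256389-68256869) was at 3.13, 4.17 and 9.04 TPM in wild type and at 2.50, 0.334 and 1.23 TPM in R1ko (adjusted p of 0.0286, and 0.168 with a replicate block). These 3 belong to different families and lie 2.02, 0.911 and 2.47 Mb from Igkc, and each was lower in every R1ko library. Igkv5-43 (chr6:69823355-69823943) was at 2.67, 6.92 and 8.95 TPM in wild type and at 0.638, 0.683 and 2.86 TPM in R1ko (adjusted p of 0.0178). It was the called segment whose groups overlapped, and its relative Igkv5-45, 99.0% identical, was listed at 0 in 5 libraries.

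**Figure D5:**
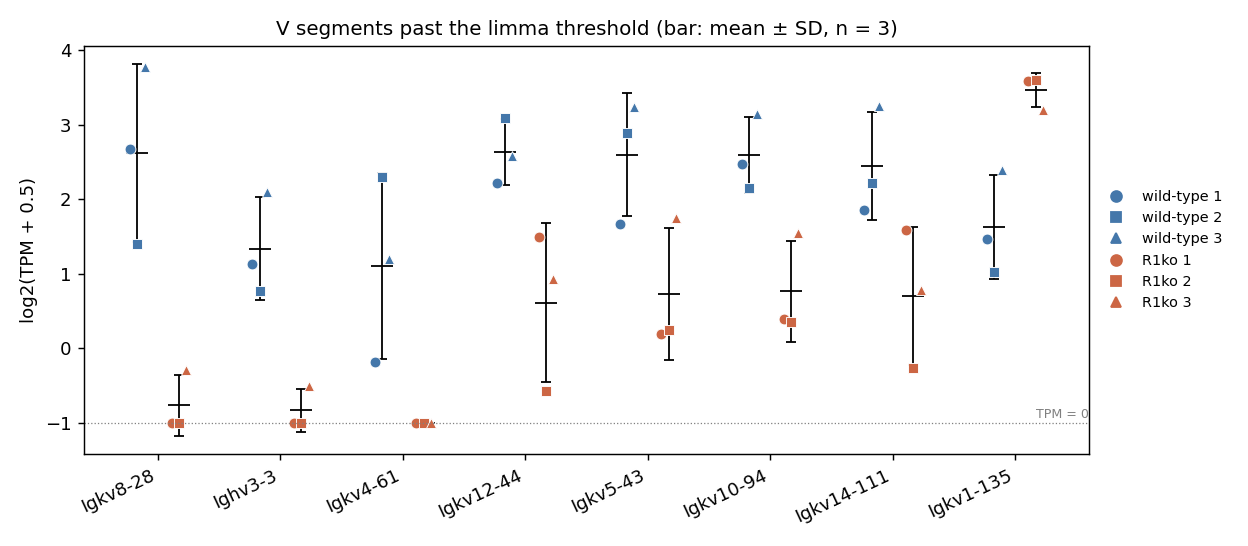
Level of the 8 V segments past the limma threshold as log2(TPM + 0.5) (y axis) in each library, with mean and SD (n = 3) and a dotted line at a TPM of 0. Igkv8-28, Ighv3-3 and Igkv4-61 lie at or near the line in R1ko, and Igkv1-135 is the one that lies higher in R1ko, at 8.72 to 11.7 TPM.

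Over the 75 tested segments, 52 were lower and 23 higher in R1ko by the sign of the fold change, and the median log2 fold change was -0.37, against 0.02 for all genes tested. For the 8209 other genes in the segments' range of mean TPM the median was -0.03. The median was -0.12 for the 30 heavy, -0.41 for the 42 kappa and -0.65 for the 3 lambda segments. An unadjusted p under 0.05 (limma) was given to 27 segments (21 lower and 6 higher), and to 526 of the 14248 genes. The 2 counts are not on an equal footing. The fit borrowed its spread from genes with a median SD of 0.25, while that of the segments was 0.90. The p of segments thus rests in part on a spread smaller than their own and may be too small. How far this set the count was not tested. After median-of-ratios scaling the count was 15 of 76 segments. All 3 R1ko libraries lay below all 3 wild-type ones in 10 segments and above them in 1, which is 13.3 and 1.33% of the 75, where 1.82 and 3.17% of all genes did so. Among these 10 were Ighv1-50 and Iglv3, which was at 6.22, 2.65 and 2.92 TPM in wild-type and at 1.99, 1.44 and 2.54 TPM in R1ko colon. Of the 10, Ighv1-50, Igkv8-28, Igkv8-19, Igkv4-61 and Ighv3-3 were under 1 TPM in every R1ko library. Only their wild-type values brought them into the test, where they could count as lower but not as higher. The 13.3% is therefore partly set by the filter, and how far was not tested. Iglv1, the leading lambda segment in every library, held 54.4, 63.5 and 80.0% of lambda in wild type and 69.3, 82.0 and 82.4% in R1ko, with overlap.

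The kappa locus lies on chromosome 6, as does Tnfrsf1a (chr6:125349362-125362484), 54.7 Mb from the nearest kappa segment. Whether alleles carried along with the deletion reach the kappa locus was not tested, and for linked sequence the deletion and its flanks cannot be told apart. The heavy and lambda loci lie on other chromosomes.

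Constant genes, the listed plasma cell genes and the gene of IgA transport were read from the same fit. Igha, the constant gene of IgA, was at 36.0, 33.9 and 68.8 TPM in wild type and at 67.6, 36.1 and 30.1 TPM in R1ko. Jchain, which links IgA into dimers, was at 10.6, 9.05 and 18.6 TPM in wild type and at 17.8, 9.81 and 7.76 TPM in R1ko. Both were highest in the libraries with the highest heavy V totals, wild-type replicate 3 and R1ko replicate 1. Of 5 constant genes tested 0 passed (limma, 3 at an unadjusted p under 0.05), and of 9 plasma cell genes 0 passed (0 at an unadjusted p under 0.05). Among all 14248 genes tested, 526 had an unadjusted p under 0.05. The plasma cell genes Xbp1, Sdc1 and Txndc5 averaged 104, 111 and 93.5 TPM in wild type, against 12.7 TPM for Jchain and 1.38 TPM for Mzb1. Which cells of the colon this RNA came from was not tested, so the count is not a readout of plasma cells alone. Pigr, which carries IgA across the epithelium, was at 674 to 1028 TPM in wild type and 1067 to 1280 TPM in R1ko, with an adjusted p of 1.0 (limma).

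Levels of B cell genes differed between the R1ko libraries. The 14 listed B cell genes summed to 36.2, 36.0 and 50.5 TPM in wild type and to 17.7, 11.2 and 44.2 TPM in R1ko. R1ko replicate 2, with the narrowest usage, had the lowest sum and R1ko replicate 3, with the broadest kappa usage, the highest sum of its group, and the part of these cells in the usage was not tested. Of 13 tested B cell genes 0 passed (limma, 8 at an unadjusted p under 0.05), all 13 had a negative fold change, and the median was -0.78. Among all 14248 genes tested, 526 had an unadjusted p under 0.05 and 6312 had a negative fold change, with a median of 0.02. None of the defining B cell markers was at 0 in any library.

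Constant genes of unswitched B cells also differed between the R1ko libraries. Ighm and Ighd, which encode IgM and IgD, together made up 36.3, 35.6 and 29.1% of heavy constant RNA in wild type and 13.6, 15.5 and 40.7% in R1ko. Ighd was at 6.38, 6.89 and 10.7 TPM in wild type and at 2.79, 1.61 and 6.20 TPM in R1ko, without overlap, with an adjusted p of 0.132. Of 5 genes tested in lymphoid stroma 1 passed, as lower, where 0.175% of all genes were lower by the same rule. This was Cxcl13, the chemokine that draws B cells into follicles. It was at 9.23, 7.31 and 12.2 TPM in wild type and at 3.61, 2.63 and 4.76 TPM in R1ko (log2 fold change -1.28 ± 0.26, adjusted p of 0.0191 with limma, 0.157 after scaling). Rag1, part of the enzyme that joins segments, was listed at 0 in wild type and at no more than 0.00435 TPM in R1ko.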

How the data were processed

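Whole colon RNA of 3 wild-type and 3 R1ko mice was sequenced from polyadenylated RNA, per the labels' protocols. The values deposited by the authors are TPM, a signal per transcript corrected for its length, made with kallisto 0.43.1 on mm10 and tested with sleuth, per the submitters' processing notes. The sleuth results were not used. Read depth is not given in the file. The table has 132639 lines for 131206 transcripts, and each transcript was taken once. Transcripts were summed per gene symbol, and 1380 without a gene were left out of the tests.

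Values were tested as log2(TPM + 0.5), in genes whose mean reached 1 TPM, with limma 3.58.1 in R 4.3.3 (lmFit, eBayes with a variance trend, Benjamini-Hochberg, two-sided, threshold 0.05). The added 0.5 makes fold changes of low genes smaller. Totals, shares and diversity are sums over chosen members and have no p. The fit was tested on simulated data with normal noise of the genes' own spread, unlike segments at 0 or high in 1 library. It recovered 33 of 100 genes changed by a log2 of 1 and 93 of 100 changed by 2. Of 14048 unchanged genes it called 8. A count of 0 passing therefore does not show that small changes are absent. Positions, gene types and sequences are from GENCODE M21 (mm10), which may differ from the transcript set of the authors. Tables were handled in Python 3.11.15 with pandas 2.3.3 and numpy 2.4.6, and V exons were aligned with Biopython 1.88.

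The members and lists were chosen with earlier results of these data known. Named segments were the 8 of highest mean TPM in heavy and kappa, all lambda segments, the leading segment of each library, those past the threshold, the 3 per locus whose share varied most and the 2 leading pseudogenes per locus. Ighv2-9, Igkv8-19, Igkv1-133 and Igkv5-45 were named afterwards as nearest relatives, and Ighv1-19 for its call with a replicate block.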

Additional observations from a re-analysis of the deposited data

How the results depend on the processing

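The counts of called segments (7 lower, 1 higher) depended on the processing. Both were 0 with no filter on low values, after median-of-ratios scaling and after rescaling TPM without immunoglobulin and mitochondrial genes, where 30, 15 and 15 segments had an unadjusted p under 0.05 (limma). A filter at 5 TPM left 8 segments, with 0 lower and 4 at an unadjusted p under 0.05. Leaving out 1 library at a time gave 1 (without wild-type replicate 2) to 16 lower (without R1ko replicate 3) and 0 (without wild-type replicate 2) to 11 higher (without R1ko replicate 2). The degrees of freedom that limma borrowed also changed. They were 2.14 with no filter, 3.18 and 3.28 after the scalings and 4.65 without wild-type replicate 2. They were infinite with the filter at 5 TPM, without wild-type replicate 1 and without any 1 of the R1ko libraries. In those fits the spread came from other genes alone. The reasons for the changed counts were not tested. Shares of all genes passing are given only for the unscaled fit of all libraries and the median-of-ratios scaling. Counts of the other fits therefore cannot be read as a result about segments. Igkv8-30 was the 1 named segment that turned with a call, to a log2 fold change of 1.01 (adjusted p of 0.0442) without R1ko replicate 2 (-0.854 without R1ko replicate 1). The effective number counted over families in place of segments gave a difference of 0.189 against -15.2 in heavy and of -1.88 against -10.3 in kappa. With replicate number as a replicate block, 6 were lower and 1 higher: 4 of the 7 lower calls and the higher one were kept, Igkv12-44, Igkv14-111 and Igkv4-61 lost theirs, and Ighv1-7 and Ighv1-19 (adjusted p of 0.0456 and 0.0297) gained one. Same-numbered libraries correlated by 0.052, 0.132 and 0.183 in their deviations from the group means. The first value is under 0.1, so the numbers were not taken as pairs, although every library except R1ko replicate 1 correlated best with its own number. Summing segments whose V exons were at least 97% identical, chosen after seeing the data, gave 9 lower and 1 higher, and leaving out each library's leading segment, chosen likewise, gave differences in effective number of -11.1 (heavy) and -9.48 (kappa) in place of -15.2 and -10.3. The log2 ratios of the heavy, kappa and lambda sums changed sign without wild-type replicate 3 (0.271, 0.023 and 0.415), and that of heavy also without R1ko replicate 2 (0.123), without R1ko replicate 3 (0.019) and with segments of at least 1 TPM (0.054). Unknown read depth, 3 mice a group and reads shared by relatives limit all values of single segments.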

Other observations

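Joining (J) segments, which belong to no comparison above, are listed with their own values. In R1ko replicate 2 Ighj3 held 52.4% of the TPM of the 4 heavy J segments and Igkj2 held 55.6% of that of the 5 kappa J segments. In the other libraries Ighj3 held 16.3 to 36.0% and Igkj2 held 12.1 to 39.2%. Igkj2 was at 22.2, 19.98 and 44.1 TPM in wild type and at 48.8, 54.2 and 14.7 TPM in R1ko. Igkj3 was listed at 0 in wild-type replicates 2 and 3 and in R1ko replicate 2, and it was at 2.55 to 6.05 TPM in the others. J segments are short, and their TPM rests on few bases.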
